A study of Mus musculus with 316 samples.

Results

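The 3-month endothelial cells of this study were compared between the gate labelled pos and the gate labelled neg of the same numbered pools. The members are the cells whose names begin with Young1pos, Young2pos, Young1neg or Young2neg, 187 of the 316 cells of the series. They comprised 46 pos cells of pool 1, 47 pos cells of pool 2, 46 neg cells of pool 1 and 48 neg cells of pool 2, that is 93 pos and 94 neg cells. All came from male C57BL/6 mice 3 months old, with no genetic change or treatment named in the labels. Hippocampi of 4 mice were pooled for each sample, dissociated with a commercial enzyme kit, and brain endothelial cells were collected by fluorescence-activated cell sorting. The labels name the gates only as pos and neg. The series title names VCAM1, vascular cell adhesion molecule 1, and the marker that set the gate is not stated in the sources used here. Cells of a pool are not replicates. Reads were therefore added up within each pool and gate, and 2 pos sums were compared with 2 neg sums. The labels say neither that the pools were processed separately nor, beyond the shared number, that both gates came from the same mice, so p-values measure only the spread between these sums.

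Endothelial cells line the blood vessels and, in the brain, form the blood-brain barrier. Capillary cells carry most of the nutrient transporters of the barrier, arterial cells build an elastic, pulsed wall, and venular cells are the usual site where leukocytes attach and leave the blood. VCAM1 is an adhesion molecule on the endothelial surface that binds integrins of leukocytes, and inflammatory cytokines raise its level. Genes typical of a vessel segment are used below as background labels, and the lists that hold them overlap in a few genes.

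The sums held 31366989 and 24715684 reads in the pos gate and 25619097 and 21716354 in the neg gate. Pos cells had more detected genes, 1965 ± 73.9 against 1481 ± 45.7 per cell (mean ± SD of n = 2 pools). With each cell thinned to 100000 reads, which left out 4, 1, 4 and 2 cells, the values were 1746 ± 30.8 and 1335 ± 78.8. Cells with fewer than 1000 genes numbered 4 and 2 in the pos gate and 8 and 8 in the neg gate. The labelled cell type matched its markers. The 20 pan-endothelial genes, among them Pecam1, Cldn5 and Cdh5, summed to 46385 and 43569 CPM (read counts scaled to the same total in every sum) in pos and 56325 and 51602 CPM in neg sums, and a cell had a read in 14.4 to 15.7 of the 20 on average. Their median log2 fold change was -0.09, beside 0.03 over all genes tested, with 5 genes (Flt1, Kdr, Emcn, Ly6c1 and Itm2a) higher in neg without overlap, 2 (Egfl7 and Slc2a1) higher in pos and the other 13 overlapping (genes named after their values were seen).

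Vcam1 (ENSMUSG00000027962.14, chr3:116109949-116129688 of GRCm38, minus strand) was read mostly in pos cells. Reads of it were found in 19 of 46 pos cells of pool 1 (41.3%, exact Clopper-Pearson 95% interval 27.0% to 56.8%) and in 27 of 47 of pool 2 (57.4%, 42.2% to 71.7%). In the neg gate it had a read in 3 of 46 cells (6.52%, 1.37% to 17.9%) and 7 of 48 cells (14.6%, 6.07% to 27.8%). The intervals cover only the counting of cells within a pool and gate, with cells taken as independent. They leave out the spread between mice and pools. Reads carry no molecular identifiers here. The difference was 34.8 points in pool 1 and 42.9 points in pool 2. Where the gate was set on VCAM1 protein, this describes the sort. The number of reads per cell differed too. Vcam1-read cells held a median of 407 and 446 Vcam1 reads in the pos pools, but 1 and 6 reads in the neg pools. Cells with 5 or more reads numbered 15, 23, 1 and 4 in pos pool 1, pos pool 2, neg pool 1 and neg pool 2. Of the 720 Vcam1 reads of neg pool 1, 718 lay in the same cell. The summed levels were 645 and 788 CPM in pos and 27.9 and 6.01 CPM in neg pools, and they did not overlap (log2 fold change 5.40 ± 0.85, SE; edgeR unadjusted p = 0.00146, adjusted p = 0.391). Of the 93 pos cells, 47 had no Vcam1 read. An opposite-strand gene overlaps Vcam1, and the use of strand in counting is not given in the sources used here.

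**Figure D1:**
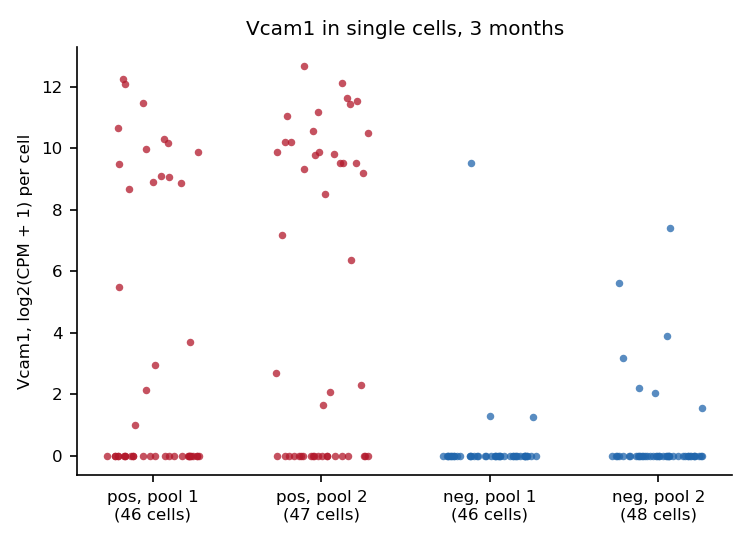
Vcam1 level of each cell, as log2(CPM + 1) on the vertical axis, by gate and pool (1 point per cell, spread sideways at random). Most pos cells with a read lie well above 6, and 1 neg cell of each pool lies above 6; cells without a read lie at 0.

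Across the transcriptome, no gene passed the test in the 4 sums alone. Of 10086 genes tested, edgeR's quasi-likelihood test called 0 (0%) at an adjusted p under 0.05, and the smallest adjusted p was 0.227. An unadjusted p under 0.05 was reached by 854 genes (8.47%), 566 higher in pos (5.61%) and 288 higher in neg (2.86%). With the pool as a replicate block, edgeR called 0 again, with 482 genes at an unadjusted p under 0.05. DESeq2 on the same sums called 1065 (10.6%), 667 of them higher in pos. When the 4 sums of aged cells were added to the fit only to share the spread, edgeR called 7 of 10571 genes (0.0662%) in the young contrast, all higher in pos. Among them were Atp2a3, Gkn3, H2-Q6 and Lrg1 (adjusted p = 0.0354 each), Prune2 (0.0456) and Sat1 (0.0463). Each gene below is described by its level in the 4 sums and by whether the gates overlap. By that measure 2179 genes (21.6%) had both pos sums above both neg sums, and 1646 (16.3%) the reverse. These shares are the background for every count of genes given below. The gene lists were chosen with earlier results of these data known, so counts within them are descriptions and not independent support.

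Arterial genes were higher in pos. All 20 arterial list genes were tested, 20 had a positive log2 fold change, and 16 had both pos sums above both neg sums with 0 the reverse. Their median log2 fold change was 2.16, and 1.81 and 2.19 within pools 1 and 2. Gkn3 (ENSMUSG00000030048.5, chr6:87383256-87388935, minus strand), a secreted gastrokine used as a marker of brain arteries, stood at 973 and 791 CPM in pos and 20.1 and 29.1 CPM in neg pools. This was a 35.9-fold difference of the means (log2 fold change 5.16 ± 0.34, SE), with the smallest unadjusted p of the genes named here (edgeR, p = 2.46e-05, adjusted p = 0.227). Its reads lay in 36 pos cells and 11 neg cells. Fbln2, which encodes the matrix protein fibulin-2, stood at 362 and 179 CPM in pos and 36.7 and 24.8 CPM in neg pools. Stmn2, a regulator of microtubules, stood at 255 and 375 against 83.0 and 62.1 CPM. Gja5, the gap junction subunit of arterial endothelium, was read in 9 pos cells, at 60.7 and 74.0 CPM, while the neg gate had 1 read of it. Mgp, the matrix Gla protein that limits calcification of vessel walls, reached 1859 and 2424 CPM in pos and 9.79 and 115 CPM in neg pools. For each of these genes the gates did not overlap. The spread between the neg pools was wide for Mgp and for Clu, the secreted chaperone clusterin, at 1685 and 2212 CPM in pos against 37.9 and 442 CPM in neg pools, where 1 neg cell held 73.3% of the neg reads.

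Genes of the smooth muscle list were read beside the arterial ones. The 3 genes of that list in the table, Mylk, Myl9 and Acta2, summed to 98.0 and 216 CPM in pos and 0.155 and 1.80 CPM in neg pools. Mylk, the myosin light chain kinase, was read in 33 pos and 6 neg cells, Myl9 in 5 and 2 cells, and Acta2, smooth muscle actin, in 7 and 6 cells. The other 7 genes of the list are not in the table, which lists only genes seen in 5 or more cells. The part of smooth muscle RNA in the arterial difference was not tested. Without the 4, 1, 0 and 1 cells that scored higher on another cell type than on the endothelial list, the arterial median was 2.17. This screen keeps endothelial cells that hold a smaller amount of smooth muscle RNA. The pericyte, oligodendrocyte, neuron and erythrocyte lists have too few genes in the table and were not scored.

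Venous genes were higher in pos too, with a wider spread between pools. Of 13 venous list genes tested, 11 had both pos sums above both neg sums. Vcam1 is among these 11 and enters the median of the list. The reverse held for 1 gene, Ctla2a (named after its value was seen). The median log2 fold change was 2.63. Within pool 1 the median was 2.02, and within pool 2 it was 4.78. Lrg1 (ENSMUSG00000037095.8, chr17:56119678-56122001, minus strand), a secreted glycoprotein of venules, stood at 502 and 366 CPM in pos pools, against 0 and 0.284 CPM in neg pools, where it had 6 reads. The pos reads came from 9 and 6 cells. Ch25h, which makes 25-hydroxycholesterol, stood at 93.5 and 234 CPM on the pos side, with 1 read among the neg cells. Vwf, the von Willebrand factor that binds platelets, stood at 1144 and 970 against 283 and 58.5 CPM. Lcn2, the iron-binding lipocalin 2, stood at 178 and 37.5 CPM in pos and 0.348 and 0.189 CPM in neg pools, and 1 pos cell held 67.7% of its pos reads. All 4 of these genes had separated gates. In each of the arterial and venous lists, only 1 gene had fewer than 3 reads in a gate. With that gene set to 3 reads there, the medians stayed at 2.16 and 2.63. That gene lies at the top of its list, so this change could not move the median.

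Gkn3 and Lrg1 were read in different cells of the pos gate. None of the 93 pos cells had reads of both genes: 36 had Gkn3, 15 had Lrg1 and 42 had neither. With only 15 Lrg1-read cells, a small overlap could be missed. In the neg gate, 1 of the 2 Lrg1-read cells also had Gkn3. Vwf was read in 31 of the 36 Gkn3-read pos cells, 15 of the 15 Lrg1-read pos cells and 74 of all 93 pos cells. Cells of the pos gate without a Vcam1 read also differed from neg cells without a Vcam1 read. Vwf was read in 76.6% of the former and 22.6% of the latter, and Rgcc in 31.9% and 75%. A cell without a Vcam1 read may still hold Vcam1 RNA or protein.

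Capillary genes were higher in neg cells. Of the 17 capillary list genes, 15 had both neg sums above both pos sums, 1 (Rgs5) had the reverse and 1 overlapped. Their median log2 fold change was -1.84, with -1.84 and -1.87 within the pools. Summed over the list, neg pools held 29775 and 31139 CPM and pos pools 12976 and 10933 CPM. The list thus remained well above 0 in the pos gate. Hmcn1 (chr1:150562524-150993435, minus strand), a large extracellular matrix protein, stood at 16.6 and 19.6 CPM in pos and 261 and 330 CPM in neg pools, a 16.3-fold difference (log2 fold change -4.03 ± 0.37, SE; edgeR unadjusted p = 0.000113, adjusted p = 0.239). Cxcl12, a chemokine of capillary endothelium, stood at 568 and 349 against 2708 and 3858 CPM. Rgcc, a regulator of the cell cycle, stood at 220 and 232 against 952 and 1500 CPM. Car4, a carbonic anhydrase on the capillary surface, stood at 836 and 760 against 2986 and 2337 CPM. In each of these genes both neg pools lay above both pos pools.

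The transporters of the barrier followed the capillary genes, with exceptions. Of 25 barrier transporter genes tested, 17 had higher neg sums without overlap and 4 had higher pos sums, with a median log2 fold change of -1.10. Mfsd2a (chr4:122946850-122961188, minus strand), which carries docosahexaenoic acid as a lysolipid, stood at 77.1 and 161 CPM in pos and 940 and 833 CPM in neg pools. Slc16a1, the monocarboxylate transporter for lactate and ketone bodies, stood at 131 and 202 against 984 and 1245 CPM. Slc7a5, the transporter of large neutral amino acids, stood at 149 and 147 against 539 and 521 CPM. Slc39a10, a zinc importer, stood at 192 and 165 against 526 and 644 CPM. These 4 genes were 3.28 to 7.45 times higher in the neg gate by their means. Tfrc, the transferrin receptor for iron uptake, was 3.85 times higher there (151 and 122 against 601 and 446 CPM), and Lrp8, a lipoprotein receptor, stood at 40.8 and 29.0 against 369 and 104 CPM. The exceptions were Slc2a1, the glucose transporter of the barrier, with a log2 fold change of 0.19, Slc6a6 (0.26), Insr (0.73) and Slc38a5 (1.04), an amino acid transporter that the venous list also holds. The efflux pumps Abcb1a (0.22), Abcg2 (-0.21) and Abcc4 (0.28) had overlapping gates. These exceptions and pumps were picked out after their values were seen.

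**Figure D2:**
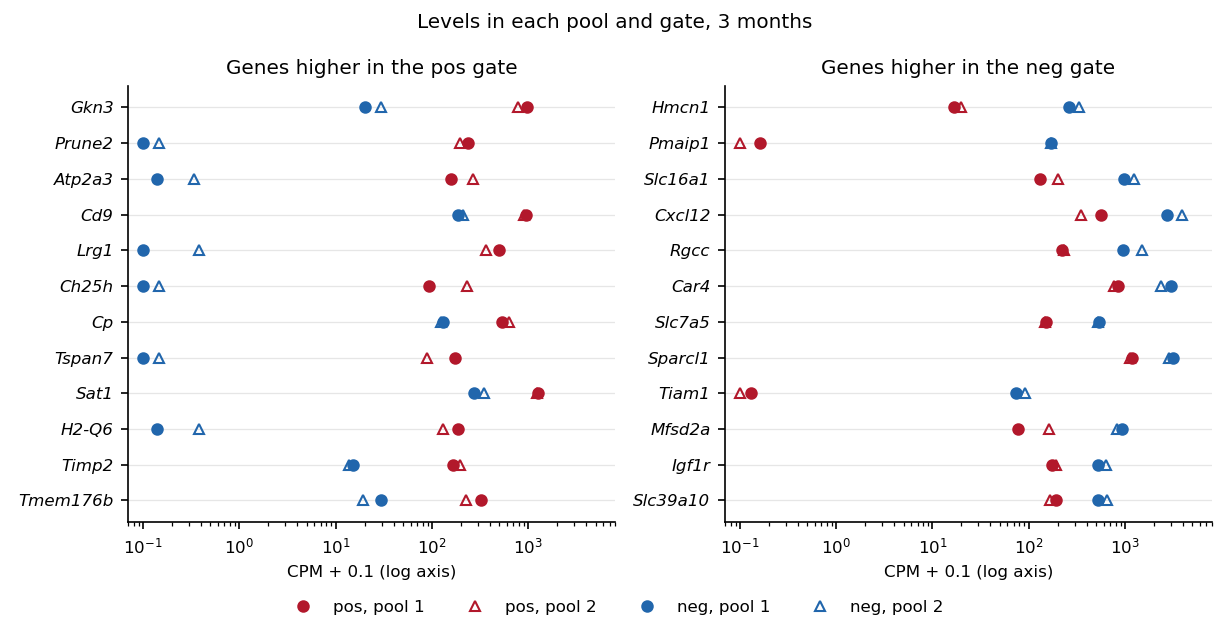
Level of the 12 genes per direction with the smallest unadjusted p, as CPM + 0.1 on a log axis, in each pool and gate (circles pool 1, triangles pool 2). No gene has overlapping gates, which the rule for naming them required; genes near 0.1 have at most a few reads in that gate.

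Other genes named by the smallest p belonged to no vessel list. On the pos side, Prune2 stood at 239 and 196 CPM in 23 cells and had 1 read in neg cells. Atp2a3, a calcium pump of the endoplasmic reticulum, reached 159 and 266 CPM in 29 pos cells and had 6 reads in neg cells. Cd9, a tetraspanin that organises adhesion molecules in the membrane, stood at 950 and 902 against 185 and 212 CPM (log2 fold change 2.22 ± 0.23, SE). Cp, the copper-carrying ferroxidase ceruloplasmin, stood at 535 and 624 against 129 and 124 CPM. Sat1, which starts the breakdown of polyamines, stood at 1251 and 1228 against 270 and 344 CPM. Timp2, an inhibitor of matrix metalloproteinases, stood at 166 and 194 against 15.2 and 13.5 CPM, and Tmem176b at 324 and 227 against 29.3 and 19.2 CPM. Tspan7, another tetraspanin, stood at 172 and 88.2 CPM in 14 pos cells and had 1 read in neg cells. Cd9, Cp and Sat1 thus differed by 4.03 to 4.67 times and were well read in both gates, Timp2 and Tmem176b by 12.6 and 11.4 times, and the other 3 genes were nearly absent from neg cells.

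On the neg side, the genes outside the capillary and transporter lists were Pmaip1, Sparcl1, Tiam1 and Igf1r. Sparcl1, a matrix glycoprotein, stood at 1193 and 1122 CPM in pos and 3126 and 2894 CPM in neg pools, in 62 and 80 cells. Igf1r, the receptor for insulin-like growth factor 1, stood at 173 and 192 against 524 and 630 CPM. Pmaip1, which encodes the pro-apoptotic protein NOXA, stood at 170 and 172 CPM in neg pools, in 14 cells, and had 2 reads in pos cells. Tiam1, an activator of the GTPase Rac, stood at 74.0 and 92.2 CPM in neg pools, in 24 cells, and had 1 read in pos cells. The edgeR adjusted p of the 24 genes named by smallest p ran from 0.227 to 0.374.

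Promoter windows of 5 of these genes are shown to set the pos and neg genes side by side. They run from 250 bases before to 50 bases after the start of the RefSeq transcript (GRCm38.p6), 5′ to 3′ on the gene's strand. Capitals mark the letters TATAAA and the NF-kappa-B-like letters GGNNNTTCC, searched on both strands. The patterns were chosen after the levels were known, and a match is a description of letters, not a site.
Gkn3, chr6:87388886-87389185: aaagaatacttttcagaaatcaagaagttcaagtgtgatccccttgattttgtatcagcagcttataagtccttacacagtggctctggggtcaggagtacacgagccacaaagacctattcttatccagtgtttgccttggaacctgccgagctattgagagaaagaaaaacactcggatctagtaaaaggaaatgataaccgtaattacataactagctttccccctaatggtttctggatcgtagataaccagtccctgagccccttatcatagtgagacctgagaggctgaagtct
Lrg1, chr17:56121897-56122196: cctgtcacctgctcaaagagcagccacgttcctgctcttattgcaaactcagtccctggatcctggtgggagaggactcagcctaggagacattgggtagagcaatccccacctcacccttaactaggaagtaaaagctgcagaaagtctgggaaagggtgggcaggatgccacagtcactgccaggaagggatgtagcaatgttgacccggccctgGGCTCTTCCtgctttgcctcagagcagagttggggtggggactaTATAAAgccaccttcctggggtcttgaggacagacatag
H2-Q6, chr17:35424600-35424899: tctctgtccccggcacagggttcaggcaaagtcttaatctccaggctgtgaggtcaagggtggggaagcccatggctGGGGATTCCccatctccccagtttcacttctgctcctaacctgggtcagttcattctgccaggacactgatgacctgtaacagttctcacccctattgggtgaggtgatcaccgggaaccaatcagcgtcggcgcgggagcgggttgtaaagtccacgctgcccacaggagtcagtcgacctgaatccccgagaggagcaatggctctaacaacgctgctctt
Car4, chr11:84957504-84957803: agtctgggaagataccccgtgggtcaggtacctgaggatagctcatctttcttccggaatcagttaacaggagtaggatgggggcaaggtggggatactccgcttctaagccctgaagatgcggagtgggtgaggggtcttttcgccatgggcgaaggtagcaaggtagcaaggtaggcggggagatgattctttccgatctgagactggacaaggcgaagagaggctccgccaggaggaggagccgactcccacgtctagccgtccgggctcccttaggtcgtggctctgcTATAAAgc
Mfsd2a, chr4:122961139-122961438: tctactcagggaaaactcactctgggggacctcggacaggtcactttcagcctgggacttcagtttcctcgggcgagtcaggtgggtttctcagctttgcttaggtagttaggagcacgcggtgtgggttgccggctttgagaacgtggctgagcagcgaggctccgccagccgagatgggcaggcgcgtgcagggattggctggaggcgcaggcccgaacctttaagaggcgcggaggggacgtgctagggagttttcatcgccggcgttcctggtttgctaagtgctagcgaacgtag
All 12 genes named by smallest p on the pos side and 9 of the 12 on the neg side had a promoter entry. GGNNNTTCC was found in a listed promoter of 6 of the 12 pos genes (Cd9, Lrg1, Cp, Tspan7, H2-Q6 and Tmem176b) and of 0 of the 9 neg genes, beside 20.7% of the 27025 genes with an entry and 18.5% of the 32851 promoters. TATAAA was found in 3 of 12 (Lrg1, Ch25h and Cp) and 1 of 9 (Car4), beside 15.7% of genes and 13.6% of promoters. Some genes have several listed promoters, and with 12 and 9 genes these counts are small.

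The shares of cells with a read gave a partly different set of genes. Of all 11463 genes, 126 (1.1%) had a share at least 20 points higher in the pos gate of both pools, and 11 (0.096%) had a share at least 20 points higher in the neg gate of both. Pos cells had more detected genes per cell, and 5734 genes had a higher share in the pos gate of both pools against 715 with a higher share in the neg gate. With cells thinned to 100000 reads, the counts were 115 and 16. Of the 126 genes, 22 belong to a list used here, 6 of them arterial (Gkn3, Bmx, Mgp, Clu, Stmn2 and Fbln5) and 3 venous (Vwf and Vcam1 among them). Of the 11 genes, 9 belong to a list, 7 of them capillary.

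On the pos side Vwf was read in 82.6% and 76.6% of pos cells against 28.3% and 25.0% of neg cells, and in 81.0% and 78.3% against 28.6% and 19.6% of thinned cells. Cd9 was read in 67.4% and 78.7% against 23.9% and 29.2%. Cp was read in 58.7% and 70.2% against 15.2% and 25.0%. In these genes the pos shares lay above 58% in both pools. Tgm2, a transglutaminase that crosslinks matrix proteins, was read in 65.2% and 80.9% against 28.3% and 35.4%. Ptms, parathymosin, was read in 73.9% and 68.1% of pos cells against 34.8% and 31.2% of neg cells, with a level 1.69 times higher (87.6 and 62.2 against 53.0 and 35.6 CPM; edgeR unadjusted p = 0.301). Anapc11, a subunit of the anaphase-promoting complex, also gained cells (56.5% and 70.2% against 19.6% and 35.4%) with a level 2.32 times higher (unadjusted p = 0.0938 in edgeR). The part of the larger number of detected genes per pos cell in these shares was not tested.

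On the neg side Rgcc had the largest gain, with a read in 67.4% and 77.1% of neg cells against 23.9% and 31.9% of pos cells. Car4 was read in 71.7% and 75% against 39.1% and 40.4%, and Slc7a5 in 78.3% and 81.2% against 47.8% and 42.6%. Cxcl12 was read in 71.7% and 81.2% against 30.4% and 51.1%, and Mfsd2a in 56.5% and 52.1% against 17.4% and 27.7%. The number of genes detected per cell was lower in neg cells, and its part in these shares was not tested. Gatm, the enzyme that starts creatine synthesis, was read in 73.9% and 70.8% of neg cells against 47.8% and 44.7% of pos cells (987 and 1035 against 538 and 361 CPM). Ivns1abp was read in 37.0% and 39.6% against 10.9% and 14.9%, at 410 and 482 CPM in neg and 1.11 and 55.7 CPM in pos pools.

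**Figure D3:**
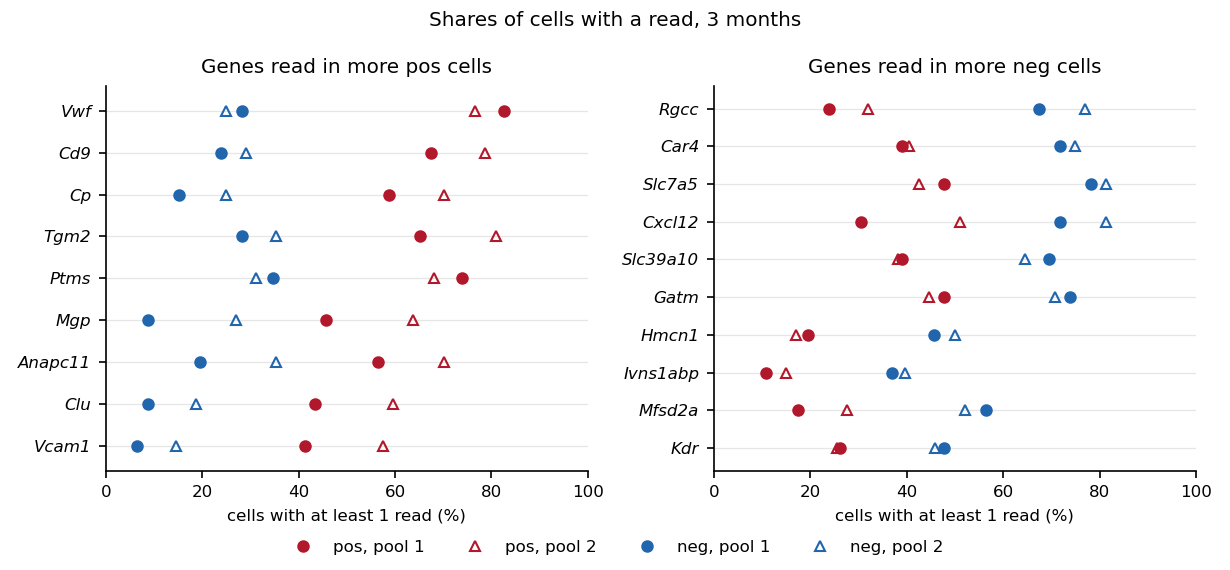
Share of cells with at least 1 read of genes among the 10 per direction with the largest difference in both pools, in percent of the cells of each pool and gate (circles pool 1, triangles pool 2). The gates are separated by 20 points or more within each pool, and Mgp, Clu and Vcam1 lie under 30% in both neg pools.

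Segment genes were also counted cell by cell. Cells were not thinned here, and the part of the larger number of detected genes per pos cell in these counts was not tested. Among cells with at least 1000 detected genes, 42 and 45 in pos and 38 and 40 in neg pools, the median pos cell had reads of 3 and 10 of the 20 arterial genes in pools 1 and 2, and the median neg cell of 2 and 2.5. Of the 14 venous genes other than Vcam1, the median was 5 and 5 in pos and 3 and 2 in neg cells. Of the 17 capillary genes it was 8 and 7 in pos and 12 and 12 in neg cells. The arterial medians show the largest difference between the pos pools. Cells with more arterial or more venous than capillary genes numbered 21 of 42 (50%) and 26 of 45 (57.8%) in pos pools. In neg pools they numbered 0 of 38 and 2 of 40 (5%). Finding 0 among 38 is compatible with shares as high as 7.89% (3 counts). The lists differ in size and were chosen with earlier results of these data known, so this count describes the gates and defines no cell type. The other pos cells had at least as many capillary genes as arterial and as venous ones. No doublet caller was run, and 1 neg cell had reads of 17 arterial and 17 capillary genes.

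**Figure D4:**
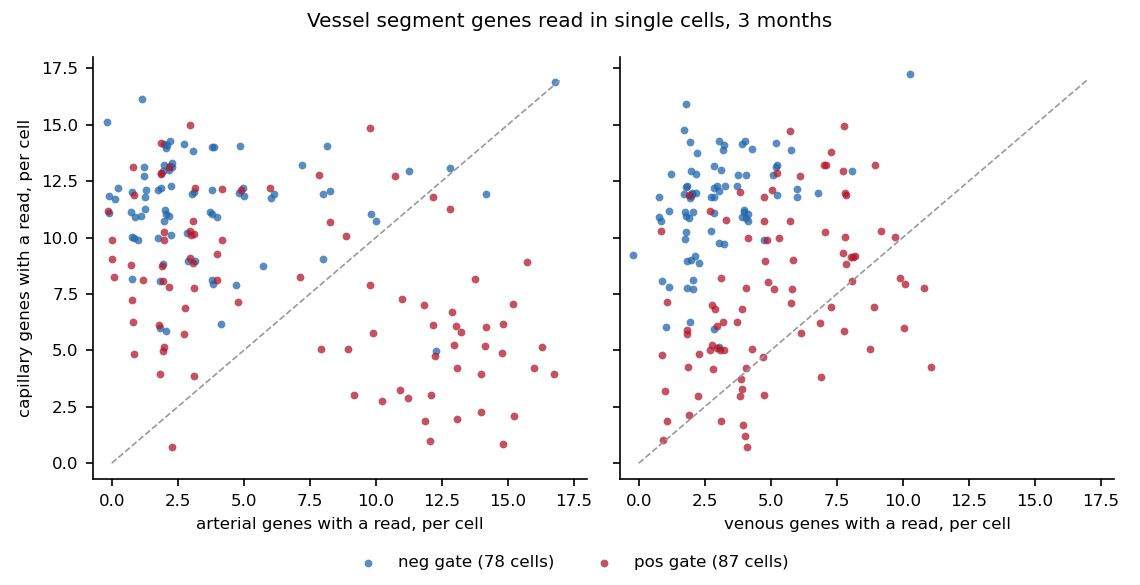
Number of arterial (left) or venous (right) genes with a read against the number of capillary genes with a read, per cell with at least 1000 detected genes (1 point per cell, spread at random by less than 0.5; the dashed line marks equal numbers). Cells far to the right at few capillary genes are nearly all pos cells, while neg cells lie mostly at 8 or more capillary genes.

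Genes of adhesion and inflammatory activation, with Vcam1 counted, were higher in pos. Of 22 tested, 12 had both pos sums above both neg sums and 2 the reverse, with a median log2 fold change of 1.34. Vcam1 is among these 12 and enters the median. Vcam1, Icam1, Lrg1, Lcn2 and Il1r1 are also on the venous list. Cx3cl1, the membrane chemokine fractalkine, stood at 332 and 310 CPM in pos and 121 and 127 CPM in neg pools. F11r, the junctional adhesion molecule A, stood at 482 and 607 against 184 and 243 CPM, and was read in 60.9% and 78.7% against 37.0% and 37.5% of cells. Both genes had close pools within each gate. The 2 genes with higher neg sums, named after their values were seen, were Nfkb1 (log2 fold change -1.05) and Nfkbia (-0.22), a subunit and an inhibitor of NF-kappa-B. Of the 30 genes on the list, 7 are not in the table.

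Notch signalling, which sets arterial identity, had 5 of 15 genes higher in pos without overlap and 1 higher in neg, with a median log2 fold change of 0.55. The gene higher in neg was the target gene Hes1 (log2 fold change -0.99), named after its value was seen. Hey1 and Dll4 are also on the arterial list. The ligand gene Jag1 stood at 581 and 500 CPM in pos and 197 and 196 CPM in neg pools, and was read in 71.7% and 76.6% against 43.5% and 50% of cells. The target gene Hey1 stood at 209 and 318 against 114 and 178 CPM. The target genes Hey2 and Nrarp had no read in the 94 neg cells and were read in 8 and 5 pos cells, at 30.8 and 60.7 CPM for Hey2 and 23.6 and 11.5 CPM for Nrarp. Against a floor of 3 reads per sum, 0.116 and 0.142 CPM in the neg pools, both genes lay above the floor in each pos pool.

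The genes of 3 VEGF receptors were higher in neg. Kdr, the main VEGF receptor, stood at 123 and 121 CPM in pos and 386 and 592 CPM in neg pools, and Flt1, the decoy receptor, at 1819 and 1813 against 2724 and 2990 CPM. Flt4, the receptor for VEGF-C, stood at 111 and 114 against 219 and 180 CPM. For each of them the gates did not overlap. In the whole VEGF and angiogenesis list 4 of 15 tested genes were higher in pos and 6 higher in neg without overlap (median log2 fold change -0.33). In the Wnt and barrier induction list, 3 of 24 were higher in pos and 8 in neg (median -0.19). The Wnt targets Apcdd1 (20.9 and 71.2 against 201 and 138 CPM) and Nkd1 (156 and 124 against 411 and 205 CPM) damp the pathway. Reck, which brings Wnt ligands to their receptor, was higher in pos (206 and 238 against 139 and 141 CPM).

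TGF-beta and BMP signalling had counts in both directions, 6 and 5 of 19 genes, and a median of -0.04. Smad6, an inhibitor of BMP signals, stood at 80.0 and 69.1 CPM in pos and 3.83 and 3.22 CPM in neg pools, and Bambi, a pseudoreceptor, at 194 and 73.3 against 26.0 and 32.3 CPM. Ltbp4, which anchors latent TGF-beta in the matrix, stood at 1147 and 1413 against 750 and 444 CPM, while the receptor gene Tgfbr2 stood at 218 and 200 against 396 and 359 CPM. Among junction genes, 3 of 19 were higher in pos and 5 in neg without overlap (median -0.13). Gja1, a gap junction subunit that the astrocyte list also holds, stood at 61.7 and 110 against 217 and 312 CPM, opposite to Gja5. Ctnnb1, beta-catenin, stood at 564 and 840 against 931 and 1339 CPM.

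Class I antigen presentation genes were higher in pos. Of 22 tested, 12 had both pos sums above both neg sums and 0 the reverse, 20 had a positive log2 fold change, and the median was 0.53. H2-D1 and H2-K1, the classical class I heavy chains, stood at 4352 and 4700 against 2548 and 2654 CPM and at 1942 and 2153 against 1235 and 1020 CPM. Tapbp, the tapasin that loads peptide onto them, stood at 688 and 770 against 480 and 533 CPM. H2-Q6 stood at 185 and 131 CPM in 20 pos cells and had 7 reads in neg cells. The class I genes have near-identical copies that share reads, so the value of each single gene is uncertain, most of all for H2-Q6. The interferon response list did not follow, with 1 of 19 genes higher in pos and 5 higher in neg without overlap, and a median of -0.26. Its member Ifitm3, a membrane protein that limits virus entry and also has close copies, was higher in pos (2168 and 1670 against 911 and 1031 CPM). The transcription factors Irf9 (168 and 124 against 282 and 453 CPM) and Irf7 (124 and 81.6 against 195 and 235 CPM) were higher in neg, as was the antiviral gene Rsad2 (38.7 and 3.18 against 89.5 and 180 CPM).

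Immediate early and dissociation stress genes stood higher in pos cells as well, in 9 of 20 tested genes without overlap and 0 in the reverse (median 0.94). Zfp36, which speeds the decay of inflammatory messenger RNAs, stood at 274 and 214 against 73.0 and 65.9 CPM. Dusp1, a phosphatase of MAP kinases, stood at 900 and 1384 against 649 and 466 CPM, Ier3 at 353 and 384 against 216 and 150 CPM, and Jun at 458 and 1468 against 92.1 and 310 CPM. Summed over the list, pos pools held 5879 and 9236 CPM and neg pools 3747 and 4207 CPM. The part of handling during dissociation and sorting in the differences between gates was not tested.

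**Figure D5:**
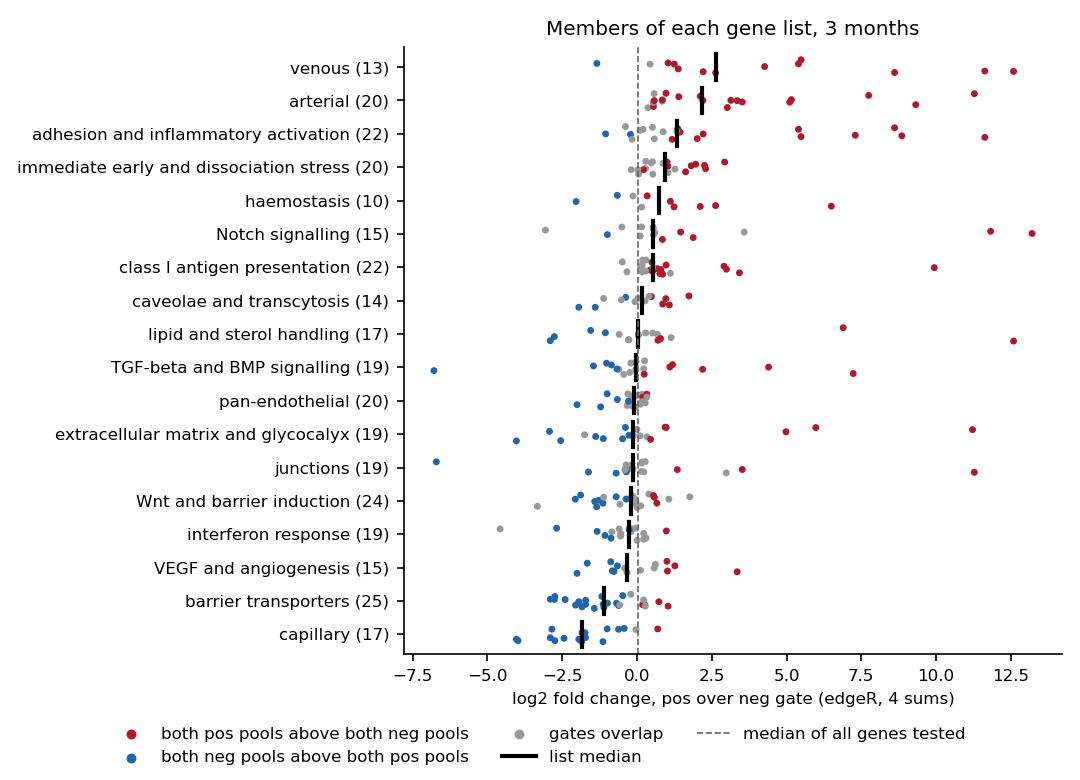
Log2 fold change of each tested member of the 18 lists with at least 10 tested genes (1 point per gene; red both pos pools above both neg pools, blue the reverse, grey overlapping; black bar list median; dashed line median of all genes tested, 0.03). The venous, arterial and adhesion lists lie to the right and the barrier transporter and capillary lists to the left; the fitted value of a gene with 0 or few reads in a gate depends on the prior count of the fit.

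Matrix genes were divided between the gates, 6 of 19 higher in pos and 8 higher in neg without overlap, with a median of -0.12. Eln, the elastin of arterial walls, stood at 351 and 355 CPM in pos and 5.92 and 16.4 CPM in neg pools (log2 fold change 4.98 ± 0.63, SE; edgeR unadjusted p = 0.000523, adjusted p = 0.239), and was read in 40 pos and 8 neg cells. Sdc1, the heparan sulfate proteoglycan syndecan 1, stood at 115 and 119.8 CPM in 11 pos cells and had 2 reads in neg cells. Hmcn1 and Sparcl1 lay on the other side. Haemostasis genes were higher in pos in 6 of 10 tested and higher in neg in 2 (median 0.73). Ptgis, the prostacyclin synthase, stood at 146 and 220 against 3.87 and 0.142 CPM, and Entpd1, which breaks down extracellular ATP, at 410 and 373 against 225 and 135 CPM. Plat, the tissue plasminogen activator, was higher in neg (1335 and 1232 against 2144 and 1897 CPM). Its share of cells with a read was higher in pos (78.3% and 83.0% against 69.6% and 66.7%). That list also holds Prosc, which is not a haemostasis gene, was entered by mistake and is 1 of the 6. Without it, which was tried after its value was seen, 5 of 9 genes were higher in pos and 2 in neg, with a median of 0.34.

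Lipid and sterol genes had 4 of 17 higher in each direction (median 0.05). Fabp4, a fatty acid carrier, had 3 reads in neg cells and stood at 6.47 and 10.4 CPM on the pos side. Caveolae and transcytosis genes had 5 of 14 higher in pos and 3 in neg (median 0.16). Ptrf (cavin 1), the coat protein of caveolae, stood at 3592 and 3745 against 1913 and 2127 CPM (log2 fold change 0.86 ± 0.18, SE; edgeR unadjusted p = 0.00528), and Ehd4, a membrane-shaping ATPase, at 234 and 349 against 60.5 and 114 CPM. Dab2, a clathrin adaptor, stood at 40.7 and 77.9 against 155 and 157 CPM. The coat of caveolae and the transferrin receptor thus lay on opposite sides.

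Lists of other cell types, apart from smooth muscle above, summed to at most 399 CPM in any pool and gate. In the pericyte list Rgs5 was the only gene tested, at 23.3 and 17.98 against 10.2 and 15.3 CPM in 6 cells of each gate, and the list summed to 10.2 to 23.3 CPM. The fibroblast list summed to 399 and 298 CPM in pos and 168 and 196 CPM in neg pools, nearly all of it Apod, which was read in 33 and 32 cells. Col3a1, a collagen of fibroblasts, stood at 14.8 and 60.5 CPM in 6 pos cells and had 4 reads in 1 neg cell. The astrocyte list summed to 338 and 124 against 225 and 312 CPM, and the oligodendrocyte list to 25.9 and 20.03 against 17.6 and 66.5 CPM. Of the neuron list, Stmn2 was the only gene in the table. The microglia list summed to 131 and 119.6 against 105 and 32.03 CPM, with 2 of its 9 genes in the table at 0, and C1qa was read in 4 pos and 0 neg cells. Of the erythrocyte list, 0 genes are in the table. The blood leukocyte list summed to 0.507 and 112 CPM in pos and 0 and 108 CPM in neg pools, so it was high in pool 2 of both gates. In the pooled reads, fewer cells of a type and less RNA per cell cannot be told apart.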

How the data were processed

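The authors deposited 1 table of raw counts, whole numbers of reads per gene and cell, with 11463 genes in rows and 316 cells in columns. Bowtie 0.12.2 and the builds mm10 and GRCm38 are named in the submitters' processing notes, while the program that counted reads, its annotation and whether it used strand are not stated there. The table lists only genes seen in 5 or more cells, and 0 cells held identical values. Per the labels, each sequenced sample is 1 cell.

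The counts of the 187 cells were added up within each pool and gate into 4 sums, keeping every cell and running no doublet caller. The 4 sums were fitted with the quasi-likelihood test of edgeR 4.0.16 (R 4.3.3; TMM, filterByExpr, gate as the only term), with Benjamini-Hochberg adjustment over 10086 genes and a threshold of 0.05. CPM values use the effective sizes of the sums. Shares of cells carry exact 95% binomial intervals; no permutation p is given for them, since 0.333 is the smallest two-sided value possible with 2 against 2. Alternatives were DESeq2 1.42.0, RLE size factors, limma-trend (limma 3.58.1, pseudocount 2), no low-count filter and a fit to all 8 sums. Others were cells thinned to 100000 reads, cells with at least 1000 genes, cells without those resembling another type, and leaving out each pool. Limma-trend used the mean CPM of the cells of each pool and gate, so that each cell weighed the same. The fits were also run on simulated counts, and the recovery and wrong calls found there are not reported here.

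Both gates of a pool share its number in the labels, which is read here as 1 pool of mice and is not stated; deviations of same-pool sums from their gate means correlated at 0.0113. The fit with the pool as a block is given beside the main counts.

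The 27 gene lists and the members were chosen with earlier results of these data known. Genes are named by rule: up to 12 per direction with the largest fold change among called genes, filled by the smallest unadjusted p among genes with at least 32 CPM in the higher gate, no overlap of gates and no cell with over 50% of the higher gate's reads; the 10 per direction with the largest share difference in both pools; and, of each list, the 4 members with the smallest p, besides Vcam1. Predicted genes are passed over, and some genes named by the rule are not reported here. Symbols were matched to GENCODE M21 (11224 matched) for coordinates, and promoters to RefSeq.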

Additional observations from a re-analysis of the deposited data

How the results depend on the processing

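With 2 sums a gate, edgeR called 0 genes with TMM or RLE size factors and without a low-count filter. It also called 0 with thinned cells, with cells of at least 1000 genes and without cells resembling another type. Limma-trend, fitted to the mean CPM per cell in place of the sums, called 0. DESeq2 called 1065, and edgeR on all 8 sums called 7. With the pool as a replicate block, edgeR called 0 in the 4 sums and 0 in all 8, with 482 and 407 genes at an unadjusted p under 0.05, against 854 and 641 without it. DESeq2 had 1761 at that level, and leaving out a pool left 387 to 390, with 0 called (spread taken from both ages, so that a lone sum is assumed to vary like the others). The causes of these shifts were not tested. The capillary median of -1.84 was -1.74 with limma-trend, -1.77 with thinned cells and -1.88 to -1.83 with a pool left out. The arterial median was then 1.84 to 2.19, and the venous median 2.04 (without pool 2) to 4.96 (without pool 1), so its size depends on the pool. The difference in genes per cell was 485, 411 after thinning and 465 to 505 with a pool left out. The difference in the share of Vcam1-read cells was 38.8 points, and 34.8 to 42.9 with a pool left out.

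Of 97 named genes, 5 changed sign under some alternative, each with overlapping gates. Igf2 (log2 fold change 0.22) was -0.12 with at least 1000 genes per cell, -0.48 without cells resembling another type and -1.14 and 10.63 without pools 1 and 2. Cnp (-0.77) was 3.81 and 3.84 with the replicate block in the 4 and the 8 sums, 1.38 with limma-trend and 11.51 without pool 2. P2ry12 (-2.61) was 10.30 without pool 1 and -13.06 without pool 2. S100a9 (0.13) and S100a8 (0.03) were -1.04 and -0.059 with at least 1000 genes per cell. The cause was not tested. The other 92 genes kept their sign under each alternative in which they were fitted.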

Other observations

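S100a8, a calcium-binding protein gene of neutrophils, differed between the pools in both gates. It had no read in the 92 cells of pool 1, which allows a share of up to 3.26% (3 counts), while in pool 2 it had reads in 29 of 95 cells, 18 pos and 11 neg. Its summed level there was 76.5 CPM in pos and 74.8 CPM in neg cells. The neutrophil partner gene S100a9 was read in 5 pos and 8 neg cells of pool 2, and in 1 pos and 0 neg cells of pool 1. Of all genes, only S100a8 and a predicted gene had no read in a whole pool and a read in at least 5 cells of each gate of the other pool. These genes were looked at after their values were seen, and whether the pools differ in cells, free RNA or handling was not tested.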
